A study of Mus musculus with 6 samples.

Results

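Small RNA sequencing of exosomes from mouse macrophages on titanium disks gave a set of sequences whose names point to the hairpins of other animals. Their endings, p5 and p3, were read as a hairpin arm with no annotated mature microRNA. That reading was not checked for the named hairpins. These sequences were chosen by name alone: a species prefix other than mouse (mmu) or rat (rno), the lower-case hairpin form "mir", and an ending in p5 or p3 ahead of any suffix. The table held 42 such rows, which came to 40 distinct sequences of 2704 in all, since 2 sequences with identical values stood under both a p5 and a p3 name. RAW264.7, a mouse macrophage cell line, was kept on Ti6Al4V disks. Exosomes were collected from cells on disks with small-scale topography, made by sandblasting, acid etching and an alkali heat treatment (3 libraries), and from cells on smooth, polished disks (3 libraries). According to the labels, both groups were kept in exosome-free medium. Whether each library stands for its own culture is not stated, and the p-values below therefore cover only the spread between libraries.

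A microRNA is made from a hairpin precursor. Dicer releases a duplex from the stem, and the strand loaded into an Argonaute protein finds its targets mainly through bases 2 to 8, the seed. Many hairpins have an annotated mature sequence on 1 arm only, and a read from the opposite arm then has no mature name of its own. Short pieces of other RNA classes, such as the 7SL RNA of the signal recognition particle, ribosomal RNA, transfer RNA and mitochondrial RNA, also fall into the size range of a small RNA library. Several entries in microRNA collections are known to resemble such pieces, the mir-1285 family among them.

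The libraries were compared through the normalized value of each sequence, as deposited. From the smallest steps of the values, 1 read was worth between 1.05 and 1.55 in the libraries of small-scale topography disks, and between 0.466 and 1.21 in those of smooth disks. Because some values ended in 0.5 of a read, the value of 1 read may be smaller by a factor of 2, and all numbers of reads given here would then be larger by that factor. On the scale used, the libraries held 163845 to 264828 reads on small-scale topography disks and 194511 to 604081 reads on smooth disks. Of 9 names for macrophage and blood cell microRNAs, 6 were listed. The names miR-21a-5p and miR-142a-3p, alternatives to the listed miR-21-5p and miR-142-3p, did not occur. Among the 6 listed, miR-21-5p held 38.2% to 46.1% of the listed total on small-scale topography disks and 40.3% to 46.4% on smooth disks. The other 5 held at most 0.183% each, with miR-223-3p at most 0.0106% and miR-142-3p at most 0.00453%, and miR-150-5p was not listed. miR-122-5p, a liver microRNA, held 1.11% to 1.59% on small-scale topography disks and 0.801% to 1.59% on smooth disks. Its part in the results below was not tested.

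The sequences on which the results turned are given here 5′ to 3′ with T for U, as the table had them. A capital marks the base that the name gives as substituted against the hairpin of the named species, with positions counted from 1 at the 5′ end, and a sequence without capitals carries no substitution in its name. The first set shows the 3 mir-1285 sequences, which made up the largest part of the sum over the 6 libraries together.
ssc-mir-1285-p3_1ss19TA: tagcgagaccccgtctctA
ssc-mir-1285-p5: gtagtgggatcgcgcctgtgaatag
cgr-mir-1285-p5_1ss5TC: ctccCgtgctgatcagta

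The second set shows the 3 hsa-mir-3976 sequences, which overlapped each other and came almost wholly from 1 library.
hsa-mir-3976-p3_1ss14AT: cctttactgcagcTtgacat
hsa-mir-3976-p3_1ss13AT: ctttactgcagcTtgacat
hsa-mir-3976-p5_1ss13AT: ctttactgcagcTtgaca

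The third set shows the other sequences that occurred without a mismatch in an annotated mouse transcript.
hsa-mir-1973-p3_1: gtatcctgaccgtgcaaa
hsa-mir-1973-p3_2: gtatcctgaccgtgcaaaggtagca
ssc-mir-10390-p5_1ss14GA: cagaccgcaacctAaacaca
efu-mir-9277-p5: tcgtggccgagtggttaag
bta-mir-2887-1-p5_1ss14CG: ggtgcggagagccGttcgtc
bta-mir-2443-p5_1ss16AG: gtgagggttgagggcGgga

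The 40 sequences carried 11 species prefixes. Human names (hsa) were the most frequent with 15 sequences, followed by cattle (bta) with 9, pig (ssc) with 4, and horse (eca) and rhesus macaque (mml) with 3 each. Dog, Chinese hamster, big brown bat, opossum, black flying fox and Tasmanian devil gave 1 each. The sequences were short: 17 had 18 nt, 12 had 19 nt and 8 had 20 nt, and the others were 1 of 21 nt and 2 of 25 nt. Thus 92.5% lay between 18 and 20 nt, against 86.0% of the 57 mouse or rat sequences of the same name form, 54.3% of the 92 sequences with a mature name (miR) of another species, 29.7% of the 344 with a mouse or rat mature name and 91.8% of the 2171 unnamed candidates (names beginning with PC). The shortest length that the authors kept was 18 nt.

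Most of these names carried a substitution. Of the 40 sequences, 31 (77.5%) differed from the hairpin they were named after at 1 base, and 9 did not differ. In all 31 the base at the named position was the one that the name gives. The mouse or rat sequences of the same form were substituted about as often, in 78.9% of cases, while the share was 27.2% among mature names of other species and 15.7% among mouse or rat mature names. No substitution lay before position 3. Positions 9 to 14 held 17 of the 31, positions 15 or later held 8 and bases 2 to 8 held 6, and only 4 stood at the last base. The most frequent change was G-to-T with 5 sequences, followed by A-to-T, C-to-G and T-to-G with 4 each.

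Base composition was uneven. Purines made up at least 70% of the bases in 14 of the 40 sequences (35%). The same limit was reached by 12.3% of the mouse or rat sequences of this name form, 21.7% of mature names of other species, 9.59% of mouse or rat mature names and 60.7% of candidates. In bta-mir-483-p5 purines reached 94.4%, and the same sequence was also listed as bta-mir-483-p3. Bases 2 to 8 were shared by only 2 pairs: hsa-mir-3976-p3_1ss13AT with hsa-mir-3976-p5_1ss13AT, and the 2 hsa-mir-1973 sequences.

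None of these sequences was part of a RefSeq mouse hairpin. Each sequence was searched in sense in the mouse transcripts of GENCODE M21 (GRCm38) and in 1005 mouse hairpins from RefSeq (GRCm38.p6). An exact match in a transcript was found for 8 of 40 (20%), a placement with 1 mismatch for 15 more, and none for 17. The exact share was 31.6% of mouse or rat sequences of the same form and 9.78% of mature names of other species. It was 83.1% of mouse or rat mature names and 1.06% of candidates. Placements with 1 mismatch were not searched for these other classes, so the 15 have no background to be set against. The share with an exact match in a RefSeq mouse hairpin was 0 of 40, against 14% of the mouse or rat sequences of the same form and 71.8% of those with a mouse or rat mature name. This hairpin share was also low for mature names of other species, at 4.35%, and was 0% for candidates. The search was limited to these transcripts and hairpins, and places elsewhere in the genome were not analysed here. In 6 of the 40 the hairpin number, in 1 case with another letter, also names a mouse hairpin in RefSeq, and 2 of these came within 1 mismatch of it, both of the mir-181 family. The case with another letter was hsa-mir-133a-2-p3_1ss9GT, set against Mir133b with 10 mismatches, since Mir133a-2 was not among the hairpins searched. Of the 8 exact matches, 4 carried a substitution in the name, so that the base counted as a change against the named species was the mouse base. Among the 15 with 1 mismatch, 12 had a substitution in the name, and the mismatch to the mouse transcript was that same change in 1 of them, ssc-mir-1285-p3_1ss19TA.

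The mir-1285 sequences lay on 7SL RNA, the RNA scaffold of the signal recognition particle, which targets nascent secretory proteins to the endoplasmic reticulum. cgr-mir-1285-p5_1ss5TC matched bases 217 to 234 of the 300-base transcript of Rn7s1 (ENSMUSG00000099021.1, chr12:69159511-69159528, plus strand, exon 1 of a non-coding transcript). ssc-mir-1285-p5 matched bases 232 to 256 of it (chr12:69159526-69159550), 3 of which both sequences cover. ssc-mir-1285-p3_1ss19TA covered its last 19 bases, 282 to 300 (chr12:69159576-69159594), with 1 mismatch, T19A, at the last base. As background from human cells, 7SL RNA is known to be trimmed at its 3′ end and to receive an added A there. Whether the A at base 19 has this origin was not tested. The same stretches stand in Rn7s2 on the minus strand of chromosome 12, so reads of the pair of genes could not be told apart. GENCODE M21 also annotates microRNA genes inside both, Gm47295 and Gm47299, and ssc-mir-1285-p5 matched each exactly, as well as Gm24105 on chromosome 5.

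ssc-mir-1285-p3_1ss19TA was the only one of the 40 that all 6 libraries listed. The table gave it 63.0, 59.0 and 5.25 on small-scale topography disks, against 104, 63.4 and 97.6 on smooth disks. These were 49, 38 and 5 reads on small-scale topography disks and 126, 136 and 81 reads on smooth disks. Every value on small-scale topography disks lay below every value on smooth disks, but the nearest pair, 63.0 on small-scale topography disks and 63.4 on smooth disks, lay close together, and small-scale topography replicate 3 stood far below all others. Its mean was 42.4 ± 32.3 on small-scale topography disks and 88.3 ± 21.9 on smooth disks (SD, n = 3 each). The difference on the scale log2(value + 1), on which the tests below were made with limma, was -1.60 (SE 0.65, unadjusted p = 0.0195), and it did not pass the test after Benjamini-Hochberg adjustment over all 536 sequences tested (adjusted p = 0.823). Without small-scale topography replicate 3 the difference was -0.50 (unadjusted p = 0.151), and leaving out any 1 library gave an unadjusted p between 0.0681 and 0.273. The unadjusted limma p was 0.00405 with the replicate number as a block (adjusted p = 0.534), and 0.229 in a linear model per sequence without moderation.

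ssc-mir-1285-p5, from further inside the same RNA, had values of 18, 0 and 6.31 on small-scale topography disks, against 57.8, 28.4 and 0 on smooth disks. The highest values were on smooth disks, but each disk had a library that did not list it, and the groups overlapped (log2 difference -1.21, SE 1.49, limma adjusted p = 0.823). The difference was -0.03 without small-scale topography replicate 2, -0.07 without smooth replicate 1 and -3.01 without smooth replicate 3. cgr-mir-1285-p5_1ss5TC was listed only in small-scale topography replicate 1, at 7.72, which was 6 reads. Together the 3 sequences held 45.7%, 33.3% and 13.7% of the summed value of the 40 on small-scale topography disks, and 76.9%, 50.5% and 54.5% on smooth disks. As a share of the whole listed total they held 0.0421%, 0.0211% and 0.00415% on small-scale topography disks, against 0.0594%, 0.0326% and 0.0416% on smooth disks, and these shares overlapped between the disks.

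Of the other exact matches, 3 were mitochondrial. hsa-mir-1973-p3_1 and hsa-mir-1973-p3_2 began at the same base of mt-Rnr2, the 16S ribosomal RNA of mitochondria (chrM:2011-2028 and chrM:2011-2035, plus strand). Each was listed in small-scale topography replicate 1 alone, at 5.14, or 4 reads. A sequence of the same place with a mature name, cgr-miR-1973_L+4R+1, shared 23 bases with hsa-mir-1973-p3_2 and was listed in every library, at 36.0, 34.2 and 75.7 on small-scale topography disks and 77.6, 78.3 and 56.6 on smooth disks. Thus both hsa-mir-1973 names overlapped a place that a mature name held in every library. hsa-mir-1973-p3_1 also matched Gm20594, a gene on chromosome 6. ssc-mir-10390-p5_1ss14GA matched the coding sequence of mt-Co1 (chrM:5959-5978, plus strand), which encodes a subunit of cytochrome c oxidase, and Gm13340, a pseudogene on chromosome 2. It was listed in smooth replicates 2 and 3 only, at 2.33 and 12.1.

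efu-mir-9277-p5 carried no substitution and matched 3 mouse genes, n-TSaga9 on chromosome 4 and n-TStga1 and Gm44456 on chromosome 13. The first 2 names are those of serine transfer RNA genes, although GENCODE M21 gives the biotype miRNA for each. The table gave it 19.3, 0 and 0 on small-scale topography disks, against 0, 10.3 and 9.64 on smooth disks. Each disk held a library with it and a library without it, and the log2 difference was -0.85 (SE 1.69, limma adjusted p = 0.908).

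bta-mir-2887-1-p5_1ss14CG matched 4 short genes of biotype miRNA with 57 bases each, Gm23935 on chromosome 16, Gm24187 on chromosome 13, Gm24245 on chromosome 4 and Gm24270 on chromosome 9. The mir-2887 family was among those taken here as known fragments of other RNA classes. No separate set of ribosomal RNA was searched, and which RNA the reads came from was not tested. The table gave bta-mir-2887-1-p5_1ss14CG 10.3, 0 and 0 on small-scale topography disks, against 4.13, 4.19 and 15.7 on smooth disks. All 3 smooth libraries and 1 of the 3 on small-scale topography disks listed it, with overlapping values (log2 difference -1.77, SE 1.59, limma adjusted p = 0.823). The remaining exact match, bta-mir-2443-p5_1ss16AG, lay in the 5′ untranslated region in exon 1 of Add1 (ENSMUSG00000029106.14, chr5:34573763-34573781, plus strand), which encodes the cytoskeletal protein alpha-adducin. It was listed in small-scale topography replicate 1 alone, at a value of 9, or 7 reads.

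Only the mir-181 names came within 1 mismatch of a RefSeq mouse microRNA. Their mature mouse forms, from RefSeq (GRCm38.p6), are printed beside them to show the single difference.
bta-mir-181b-2-p3: ctcactgatcaatgaatgt
mmu-miR-181b-2-3p: ctcactgatcaatgaatgcaaa
sha-mir-181a-2-p3: accatcgaccgttgactgtac
mmu-miR-181a-1-3p: accatcgaccgttgattgtacc
mmu-miR-181a-2-3p: accaccgaccgttgactgtacc
bta-mir-181b-2-p3 differed from mmu-miR-181b-2-3p (Mir181b-2, chr2:38853883-38853904, plus strand) by C19T, at its last base. sha-mir-181a-2-p3 differed by T16C from mmu-miR-181a-1-3p (Mir181a-1, chr1:137966508-137966529, plus strand) and by C5T from mmu-miR-181a-2-3p (Mir181a-2, chr2:38852785-38852806, plus strand). In these tokens the mouse base comes first. Its bases 2 to 8 were those of mmu-miR-181a-1-3p, and those of bta-mir-181b-2-p3 were those of mmu-miR-181b-2-3p.

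Each was listed in 1 library, while related sequences named for rat were listed in up to 5. sha-mir-181a-2-p3 was listed in small-scale topography replicate 2 alone, at 12.4, or 8 reads, and bta-mir-181b-2-p3 in smooth replicate 2 alone, at 7.46, or 16 reads. rno-miR-181a-1-3p_R-1, which carries the mouse sequence without its last base, had values of 14.1, 0 and 105 on small-scale topography disks and 35.5, 43.3 and 37.4 on smooth disks. rno-miR-181a-2-3p_R+2_1ss7AG had values of 34.7, 9.32 and 0 on small-scale topography disks and 9.91, 28.4 and 19.3 on smooth disks. Another related sequence, rno-miR-181c-3p, was listed in smooth replicate 2 alone, at 3.26. In its only library sha-mir-181a-2-p3 stood above all of them, but on few reads. It had 8 there, against 6 for rno-miR-181a-2-3p_R+2_1ss7AG, and the other related sequences were not listed in that library.

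The hsa-mir-3976 names were 1 stretch of sequence under 3 names. hsa-mir-3976-p3_1ss13AT lacked the first base of hsa-mir-3976-p3_1ss14AT, and hsa-mir-3976-p5_1ss13AT also lacked the last, so the same 18 bases were assigned to the p3 arm or to the p5 arm according to their ends. hsa-mir-3976-p3_1ss14AT had values of 0, 25.6 and 2.63 on small-scale topography disks and was listed at 0 in all 3 smooth libraries. hsa-mir-3976-p3_1ss13AT had values of 0, 31.8 and 2.63 on small-scale topography disks, against 0, 1.86 and 0 on smooth disks. hsa-mir-3976-p5_1ss13AT had values of 0, 25.6 and 0 on small-scale topography disks, against 0, 3.26 and 0 on smooth disks.

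Small-scale topography replicate 2 thus held nearly all of their signal, and there the 3 names made up 46.9% of the summed value of the 40 sequences. The log2 differences were 2.20, 1.79 and 0.88 in the same order (SE 1.68, 1.69 and 1.72), and none passed the limma test (adjusted p = 0.823, 0.823 and 0.905). A candidate, PC-5p-49067_56, shared 17 bases with hsa-mir-3976-p3_1ss14AT and was highest in the same library, with values of 0, 162 and 0 on small-scale topography disks, against 14, 2.33 and 0 on smooth disks. Without replicate 2 of small-scale topography the log2 difference of hsa-mir-3976-p5_1ss13AT was -0.70. Neither of the longer sequences had a placement with 1 mismatch or fewer in a mouse transcript.

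Other names that led by share had no exact mouse match. hsa-mir-7703-p3_1ss3GT was listed in 5 libraries, at 0, 9.32 and 7.36 on small-scale topography disks and 14, 9.32 and 9.64 on smooth disks. The values did not overlap between the disks, but the nearest pair was equal to 3 digits (log2 difference -1.42, SE 1.35, limma adjusted p = 0.823). hsa-mir-133a-2-p3_1ss9GT, named for a family of muscle microRNAs, had values of 0, 9.32 and 5.25 on small-scale topography disks, against 0, 6.99 and 0 on smooth disks (log2 difference 1.0, SE 1.67, limma adjusted p = 0.884). It shared all of its 18 bases with the candidate PC-5p-33658_87, which had values of 11.6, 23.3 and 27.3 on small-scale topography disks and 4.13, 14.9 and 0 on smooth disks. The muscle microRNA miR-133a-3p itself was listed in 1 library, with 0.000828% of the total in smooth replicate 2.

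bta-mir-483-p5 had values of 3.21, 0 and 3.15 on small-scale topography disks, against 0, 5.83 and 7.23 on smooth disks, with 2 libraries of each disk listing it. bta-mir-2904-2-p5_1ss16TC, of a family known to resemble ribosomal RNA, was listed in small-scale topography replicate 1 alone, at 4.50. The highest value of a sequence listed in 1 library was that of mml-mir-1249-p5_1ss13GT, 17.2 or 37 reads in smooth replicate 2.

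Detection was sparse. Of the 40 sequences, 24 (60%) were listed in 1 library only, 7 in 2 libraries, 4 in 3, 3 in 4, 1 in 5 and 1 in all 6. The share listed in 1 library was 31.6% among mouse or rat sequences of the same form, 40.2% among mature names of other species, 25.6% among mouse or rat mature names and 89.2% among candidates. The 24 sequences rested on 2.5 to 37 reads, with a median of 6, and 18 of them on fewer than 10. Some values ended in 0.5 of a read (4, 4 and 3 values on small-scale topography disks, and 0, 2 and 1 on smooth disks). Small-scale topography replicate 1 alone listed 9 of the 24, replicates 2 and 3 listed 1 and 4, and smooth replicates 1 to 3 listed 4, 3 and 3.

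The number of sequences listed overlapped between the disks. At least 1 library listed 28 of the 40 sequences on small-scale topography disks and 25 on smooth disks, with 15 listed on small-scale topography disks only, 12 on smooth disks only and 13 on both. Single libraries listed 16, 8 and 13 on small-scale topography disks and 10, 16 and 10 on smooth disks. Without small-scale topography replicate 1 that disk listed 16. When all 3 libraries of a disk had to list a sequence, small-scale topography had 1 and smooth disks had 3. A value of 0 does not show absence, because the table mostly leaves out sequences of fewer than about 5 reads, which correspond to 7.77 in small-scale topography replicate 2 and to 2.33 in smooth replicate 2. The rule for listing a sequence is not known here, so no firm upper limit was set for a 0.

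The summed share of the 40 sequences was small in every library. It was 0.0922%, 0.0632% and 0.0304% of the listed total on small-scale topography disks, against 0.0773%, 0.0646% and 0.0763% on smooth disks. The means were 0.0619% ± 0.0309 on small-scale topography disks and 0.0727% ± 0.0071 on smooth disks (SD, n = 3 each), and the range on small-scale topography disks took in that on smooth disks (p = 0.7 in a two-sided exact permutation test, which can reach 0.1 at the lowest). The difference, -0.0108 percentage points, was smaller than the spread between the small-scale topography libraries. It was 0.00494 without small-scale topography replicate 3 and 0.00568 without ssc-mir-1285-p3_1ss19TA. The 37 sequences other than mir-1285, a group chosen after seeing the data, held 0.0395% ± 0.0121 on small-scale topography disks and 0.0282% ± 0.00902 on smooth disks (exact permutation test, p = 0.3). Without the 3 hsa-mir-3976 sequences as well, the means were 0.029% on small-scale topography disks and 0.0276% on smooth disks. For scale, mouse or rat sequences of the same form held 0.695% ± 0.160 on small-scale topography disks and 0.581% ± 0.0676 on smooth disks.

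The test across the table covered sequences whose values summed to at least 20. This limit let 9 of the 40 through, and 31 were too low to be tested. The lowest sum among the tested was 21.6 (hsa-mir-133a-2-p3_1ss9GT), and the highest among the others was 19.4 (bta-mir-483-p5). None of the 9 passed an adjusted p of 0.05 in limma, nor did any of the 536 sequences tested (0%). At an unadjusted p under 0.05 the count was 1 of 9, ssc-mir-1285-p3_1ss19TA, against 12 of 536 (2.24%). Values that did not overlap between the disks occurred in 2 of the 9, both lower on small-scale topography disks, against 37 of 536 (6.90%) in either direction with 27 (5.04%) in that direction and 10 (1.87%) in the other. After the libraries were rescaled by the median ratio of the 252 sequences listed in all 6 libraries, with factors between 0.988 and 1.03, neither of the 2 remained apart.

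By direction, 4 of the 9 had a log2 difference above 0, against 271 of 536 (50.6%). The 4 were the 3 hsa-mir-3976 sequences and hsa-mir-133a-2-p3_1ss9GT, and the 5 below 0 were hsa-mir-7703-p3_1ss3GT and 4 sequences placed on 7SL RNA or on other annotated non-coding genes. The filter on the sum can let a sequence in through the disk where it is high. The 3 hsa-mir-3976 sequences passed it on 25.6, 31.8 and 25.6 in small-scale topography replicate 2. Conversely, hsa-mir-7703-p3_1ss3GT and bta-mir-2887-1-p5_1ss14CG would not have passed it on their small-scale topography values. The count by direction is thus a description only. The median was -0.85 over the 9 and 0.01 over all 536, with a standard error of 0.65 to 1.72 for each of the 9. The median over the 9 lay between -0.35 and -0.07 with any 1 library left out, and was 0.47 over all 40 with no filter on the sum. Since the 3 hsa-mir-3976 names share 1 stretch of bases and 2 others were placed on 1 RNA, the 9 are not independent.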

How the data were processed

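The authors sequenced TruSeq small RNA libraries, trimmed the 3′ adapter, kept 18 to 26 nt, filtered out reads of mRNA, Rfam classes and repeats, and used ACGT101-miR to name the sequences and to give each a normalized signal in every library, which is the unit of the deposited values. For the scaling factor, the miRBase release, the genome build and the version of the program, nothing was given in the sources used here. Rows of 1 sequence with identical values were counted once. The value of 1 read was taken from the smallest steps. Whole reads, with a tolerance of 0.02, accounted for 87.9% to 92.7% of the listed values in each library, and a test for counts was not used.

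Sequences whose 6 values summed to at least 20 were tested with limma 3.58.1 in R 4.3.3 (eBayes with a mean-variance trend, no covariate) on log2(value + 1), small-scale topography over smooth, with Benjamini-Hochberg adjustment at 0.05 over all 536. A log2 difference on this scale understates the change of low values. The procedure was tested on simulated data. Shares were compared with the exact permutation test. Matching used Python 3.11.15 with pandas 2.3.3 and NumPy 2.4.6.

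The sequences and lists were chosen with earlier results of these data known. Sequences named with values are the 10 of highest mean share, those past an unadjusted p of 0.05, without overlap between disks, listed in all 6 libraries, sharing at least 14 bases with another of the 40, or of families known as fragments of other RNAs. The exact transcript matches, the mir-181 names and mml-mir-1249-p5_1ss13GT were added after their values were seen. Bases are printed only for sequences placed in mouse transcripts within 1 mismatch on which the results turned, and for the hsa-mir-3976 names.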

Additional observations from a re-analysis of the deposited data

How the results depend on the processing

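Of the 40 sequences, those tested did not pass the adjusted threshold under any of 16 alternatives. All 40 were tested only with no filter on the sum, 2 with a sum of at least 60 and 9 in the others. Of all sequences tested in the table, 1 passed in the linear model without moderation and 0 in the other 15. Another filter, another set of rows, the replicate block or another variance model leaves the log2 difference of a sequence unchanged by construction. Only the pseudocounts, the rescaling and the left-out libraries could change it. With all alternatives counted, 136 of 137 recomputed log2 differences over the 9 tested sequences kept their direction. The exception was hsa-mir-3976-p5_1ss13AT, whose value lay between -0.70, without small-scale topography replicate 2, and 1.67 with 1 library left out. The value lay between -2.03 and -0.35 for hsa-mir-7703-p3_1ss3GT, 0.93 and 3.30 for hsa-mir-3976-p3_1ss14AT, 0.42 and 2.94 for hsa-mir-3976-p3_1ss13AT, -2.93 and -1.18 for bta-mir-2887-1-p5_1ss14CG, 0.32 and 2.01 for hsa-mir-133a-2-p3_1ss9GT, and -2.30 and -0.13 for efu-mir-9277-p5. The count above 0 was 22 of 40 with no filter on the sum and 0 of 2 with a sum of at least 60, and 3 to 4 of 9 with 1 library left out. The median log2 difference was 0.47 with no filter, where 31 more sequences enter, -1.41 with a sum of at least 60, -1.15 with a pseudocount of 0.5 and -0.29 with a pseudocount of 5, and lay between -0.35 and -0.07 with 1 library left out.

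The difference in summed share lay between -0.0259 and 0.00494 percentage points with 1 library left out, and was 0.00568 without ssc-mir-1285-p3_1ss19TA. In 2 alternatives chosen after seeing the data it was 0.0113 without the 3 mir-1285 sequences and -0.0207 without the 3 hsa-mir-3976 sequences. The number of the 40 that did not overlap between disks was 2, against 1.44% of all 2704 sequences. It was 0 after rescaling by median ratios (1.37% of all), 2 to 5 with 1 library left out (2.37% to 5.21% of all), and 19 when a 0 was replaced by the lowest listed value of its library (43.0% of all). That value differs between libraries, which by itself sets libraries apart. On small-scale topography disks, 8 sequences were listed in at least 2 libraries, 1 in all 3, 16 at a value of at least 7.77 and 16 to 26 with 1 library left out. On smooth disks, 8 were listed in at least 2 libraries, 3 in all 3, 9 at a value of at least 7.77 and 17 to 21 with 1 library left out. The limit of 7.77 is 5 reads in small-scale topography replicate 2, while 5 reads are 2.33 in smooth replicate 2. It thus asks for more reads in the deeper libraries, and the counts at this limit are not comparable between the disks.

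Deviations of libraries with the same replicate number correlated at -0.0347, 0.104 and 0.0245 over the 536 sequences, so the numbers were not treated as pairs. With the replicate block 0 of 536 sequences were called (18 at an unadjusted p under 0.05 in limma). In this balanced design the block cannot change a log2 difference or the mean difference in share. The 4 of 9 above 0, the median of -0.85 and the -0.0108 percentage points are therefore the same values as without it. For the share, an exact permutation test of the mean over all sign changes of the 3 differences gave p = 0.75. With 3 differences, a test over sign changes cannot reach 0.05. Depth limits these results: the sequences listed in 1 library rest on a median of 6 reads.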

Other observations

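The 9 cattle names among the 40 sequences were of mixed placement: 2 matched a mouse transcript exactly, 4 with 1 mismatch and 3 not at all, and 7 of the 9 were listed in 1 library only. Their summed values were 34.7, 0 and 3.15 on small-scale topography disks and 8.26, 26.3 and 29.0 on smooth disks. The 15 human names gave 2 exact matches, 8 with 1 mismatch and 5 without a match, with summed values of 33.5, 102 and 49.4 on small-scale topography disks and 28.9, 26.6 and 22.9 on smooth disks. The 4 pig names, 3 of which were placed in mouse transcripts within 1 mismatch, summed to 81.0, 59.0 and 20 on small-scale topography disks and 162, 94.1 and 110 on smooth disks, the highest of the 11 prefixes in 4 of the 6 libraries.

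Other rows of the table also matched mt-Rnr2 exactly. hsa-miR-4485-3p_R-2_1ss15CT had values of 190, 115 and 108 on small-scale topography disks and 64.4, 186 and 166 on smooth disks. The candidate PC-3p-37762_76 had values of 81.0, 21.7 and 75.7 on small-scale topography disks and 15.7, 28.9 and 72.3 on smooth disks. In both the disks overlapped.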
